A study of Bos taurus with 29 samples.

Results

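HCRT, the gene of hypocretin (orexin) precursor, and PMCH, the gene of pro-melanin concentrating hormone, were examined in the hypothalamus of 29 heifer calves. These are 2 of the 24596 genes listed in the deposited table, taken by their Ensembl identifiers, ENSBTAG00000000665 for HCRT and ENSBTAG00000013008 for PMCH. The tissue was the hypothalamus that remained after the arcuate nucleus (ARC) had been dissected out, and it was collected from Angus and Holstein-Friesian crossbred calves at 21 weeks of age. Of these calves, 14 had been reared on a high plane of nutrition (HI, target growth 1.2 kg/d), with 1.5 kg of milk replacer a day and free access to concentrates. The other 15 had been reared on a moderate plane (MOD, target growth 0.5 kg/d), with 0.5 kg of milk replacer a day and a fixed concentrate allowance. After weaning both groups also had hay, HI with concentrates still unrestricted. The labels put the start of the diets in week 2.

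Orexin and melanin concentrating hormone (MCH) are made by separate populations of neurons that lie intermingled in the lateral hypothalamus and project widely through the brain. Orexin neurons are known for sustaining wakefulness and arousal and for promoting feeding, and their loss underlies narcolepsy. MCH neurons are known for promoting feeding and energy storage and for being active in sleep. Outside this region both transcripts are scarce in the hypothalamus, so that each gene marks its own cell population. In a bulk sample, fewer cells of a type and less RNA per cell cannot be told apart.

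Levels are given in CPM, the reads of a gene scaled to a common library size, which the authors had adjusted with TMM factors. The library total, here the reads counted on genes and not all reads sequenced, was 11820640 to 17206435. At this depth 3 reads corresponded to between 0.178 and 0.279 CPM. Across all genes 4 libraries stood apart, those of HI calf 2120 and MOD calves 1395, 1689 and 2551. Their sample quality weights in limma-voom, which are low for libraries that vary most, were 0.0705 to 0.191, against 0.313 to 3.90 in the remaining calves. AGRP, an ARC peptide gene, was at 0 in 23 of the 29 calves and did not exceed 0.153 CPM, and POMC, another, had a median of 17.7 CPM. NKX2-1, a transcription factor of the ventral hypothalamus, was below 1 CPM in 10 HI and 9 MOD calves, and no glial marker had an identifier. PMCH lies within the span of another gene, PARPBP, in the RefSeq annotation. The library kit marks strand, but whether counting used it is not given in the sources used here, so that PMCH reads carry this uncertainty, whereas HCRT overlapped no gene.

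HCRT was near absent in some calves of both diets and abundant in others. In the HI calves it ranged from 0.0762 CPM, a single read in calf 2528, over a median of 2.12 CPM to 41.1 CPM in calf 3620. In the MOD calves it ranged from 0 in calf 1057 over a median of 0.344 CPM to 192 CPM in calf 1689. The 0 in calf 1057 allows a level of up to 0.213 CPM, which is 3 reads of its library, and covers counting error only. HCRT was counted in 3 reads or fewer in 4 HI and 7 MOD calves. At the upper end, MOD calves 1689, 3622, 2537 and 1392 had 192, 138, 56.6 and 44.7 CPM, all above the highest HI calf. The next MOD calf, 2346, had 5.95 CPM, and it stood below 5 of the 14 HI calves. Thus the diets overlapped, with MOD calves holding the highest values. At the low end, calves of both diets had 3 reads or fewer, and their order is not resolved.

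PMCH followed the same course at higher read numbers. In the HI calves it ranged from 0.138 CPM in calf 1707 over a median of 15.0 CPM to 92.5 CPM in calf 3148. In the MOD calves it ranged from 0.0670 CPM, a single read in calf 1395, over a median of 3.44 CPM to 389 CPM in calf 1689. The highest MOD calf had 5797 times the level of the lowest, and the highest HI calf 672 times. Because the lowest calves rest on 1 and 2 reads, these ratios carry wide counting error. MOD calves 1689, 2537 and 3622 had 389, 261 and 203 CPM, and no HI calf reached 100 CPM. The fourth MOD calf, 1392, had 37.8 CPM, whereas 5 HI calves lay above it, among them 4 between 70.8 and 92.5 CPM. The plot of levels by calf shows this asymmetry for both genes.

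**Figure D1:**
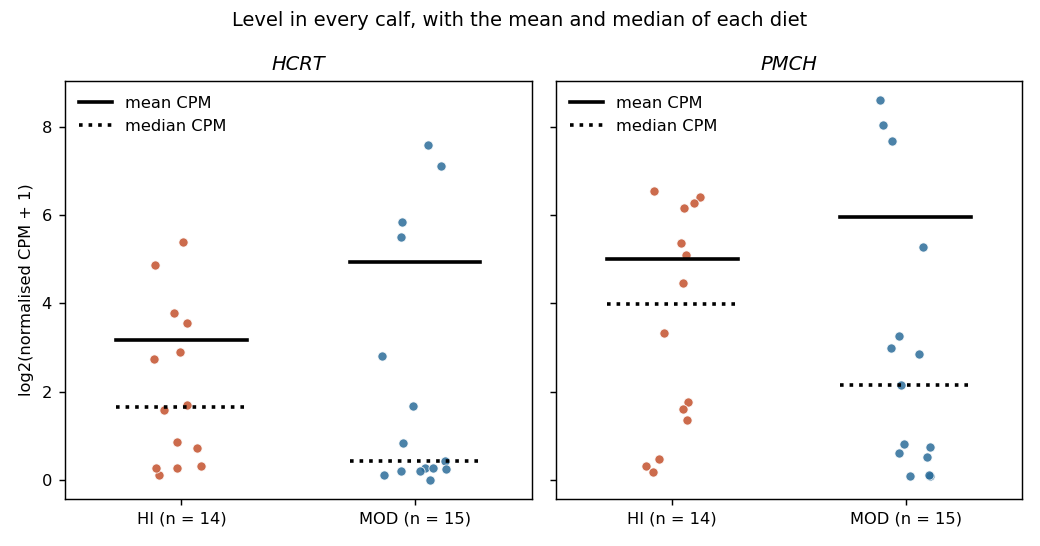
Level of HCRT (left) and PMCH (right) as log2(normalised CPM + 1) in each of the 14 HI and 15 MOD calves, 1 point a calf, with solid bars at the mean CPM and dotted bars at the median CPM of a diet. The mean of MOD is above the mean of HI and the median of MOD is below the median of HI for both genes, and the 3 highest points of each panel are MOD calves.

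On a log2 scale the spread of both genes between calves was among the widest of the tissue. The SD of log2(CPM + 1) over the 29 calves was 2.77 for PMCH and 2.35 for HCRT, which placed them 4th and 6th of the 13785 genes above the low-expression limit (more than 1 CPM in at least 14 calves). The median SD of those genes was 0.43. HCRT met this limit in exactly 14 calves and PMCH in 19. The first 2 places belonged to AVP (SD 3.37) and OXT (SD 3.01), the vasopressin and oxytocin genes of magnocellular neurons. Within diets the SD of HCRT was 1.80 in HI and 2.82 in MOD, and that of PMCH was 2.50 and 3.06. The mean distance from the diet median was 1.49 in HI and 2.00 in MOD for HCRT (p = 0.505) and 2.23 and 2.38 for PMCH (p = 0.809, two-sided permutation tests, chosen after the values were seen), so that a difference in spread was not detected.

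The mean and the median of the diets pointed in opposite directions for both genes. The mean of HCRT was 7.97 ± 12.3 CPM in HI (SD, n = 14) and 29.4 ± 58.7 CPM in MOD (SD, n = 15), thus 3.69 times higher in MOD. Its median was 6.18 times higher in HI. The mean of PMCH was 30.9 ± 35.3 CPM in HI (SD, n = 14) and 61.2 ± 121 CPM in MOD (SD, n = 15), thus 1.98 times higher in MOD, while its median was 4.35 times higher in HI. All 4 differences lay within what the spread between calves allowed. For the means the permutation p was 0.242 for HCRT and 0.395 for PMCH, and for the medians it was 0.364 and 0.235 (two-sided, 100000 resamples).

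The means of MOD were carried by few animals. The 3 highest MOD calves held 87.6% of all HCRT expression and 92.9% of all PMCH expression summed over the 15 MOD calves, and the 3 highest HI calves held 73.8 and 58.3% of that of HI. Calf 1689 alone held 43.5% of HCRT and 42.3% of PMCH in MOD, and it was 1 of the 4 libraries that stood apart, with a TMM factor of 0.795. Calf 3622 had a quality weight of 2.57 and a TMM factor of 1.03, and still held 31.2% of HCRT and 22.1% of PMCH. Calf 2537 held 12.8% of HCRT and 28.4% of PMCH, and its quality weight of 0.313 was the lowest outside the 4 libraries that stood apart. With the 4 libraries that stood apart left out, the log2 ratio of the HI mean to the MOD mean was -1.35 for HCRT and -0.53 for PMCH. Over all calves it was -1.88 and -0.99. Calf 1689 is both the highest calf and 1 of those libraries, and whether library quality bears on these values was not tested. With calves 1689, 2537 and 3622 left out, the mean of the remaining 12 MOD calves was 4.58 ± 12.7 CPM for HCRT and 5.46 ± 10.6 CPM for PMCH (SD), both below the HI mean. Those calves were chosen by their values and from a single diet, so no test is given. With means trimmed by 20% at each end, HI stood at 4.18 CPM and MOD at 6.08 CPM for HCRT, and at 25.6 and 7.26 CPM for PMCH, so that trimming turned the direction for PMCH and not for HCRT.

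A mean at least 1.5-fold lower together with a median at least 1.5-fold higher in HI was met by 5 genes, 0.0363% of the 13785. HCRT and PMCH were 2 of these 5. The others were HP, the acute phase protein haptoglobin, a gene listed under the symbol Gm8618, and 1 gene without a symbol. The reverse pattern was met by no gene. These counts describe the table and carry no test.

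The comparison of HI with MOD across all genes asked whether either peptide gene responded to the plane of nutrition. In limma on log2(CPM + 1), the log2 fold change of HI over MOD was -0.13 for HCRT (standard error 0.84, 95% interval -1.85 to 1.59, p = 0.875, adjusted p = 0.999). For PMCH it was 0.60 (standard error 0.99, 95% interval -1.42 to 2.62, p = 0.549, adjusted p = 0.999). Neither difference was called, and the intervals include changes of several fold in either direction. Of the 13785 genes tested, 0 (0%) were called at an adjusted p under 0.10 with a fold change over 1.5, and 179 (1.3%) had an unadjusted p under 0.05. That share is below the 0.05 which a test without any diet difference would give on average, so that the absence of calls in this fit is weak evidence. The count of 179 rested in part on single libraries, with 728 genes (5.28%) without HI calf 2120 and 385 (2.79%) without MOD calf 1395, and 0 called in each. In limma-voom with sample quality weights 1742 genes (12.6%) had an unadjusted p under 0.05. Its lowest adjusted p was 0.0160, but 0 genes passed both the adjusted p and the fold limit. Of the count-based tools, DESeq2 called 2 genes and the exact and quasi-likelihood tests of edgeR 0, with 305, 210 and 223 genes at an unadjusted p under 0.05. HCRT and PMCH are on the list of diet-responsive transcripts that the study drew from these same samples with the exact test of edgeR. The directions here are thus not independent of that list. The study places HCRT among the transcripts most reduced in HI. The exact test here called neither gene, although its estimate for HCRT was lower in HI (log2 fold change -1.91, p = 0.0681). For HCRT the direction and size of the reduction were thus close to those the study reports, and the call differed. Why the call differed was not tested.

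The sign of the diet difference was not the same in all methods. For HCRT the tools that model mean reads gave a log2 fold change of -1.91 in the exact test of edgeR (p = 0.0681, adjusted p = 1), -1.91 in its quasi-likelihood test (p = 0.0870, adjusted p = 0.999) and -1.90 in DESeq2 (p = 0.0629, adjusted p = 1.00). For PMCH the same tools gave -0.999, -0.998 and -0.999, with unadjusted p-values of 0.315, 0.351 and 0.315, against 0.60 in limma. With sample quality weights in limma-voom, both genes were higher in HI, HCRT by 0.73 (p = 0.575, adjusted p = 0.856) and PMCH by 0.84 (p = 0.549, adjusted p = 0.845). With MOD calves 1689 and 2551 left out, HCRT turned to 0.18 (p = 0.828, adjusted p = 1.00) and PMCH stood at 1.03 (p = 0.295, adjusted p = 1.00). Both calves are among the 4 libraries that stood apart, but they come from a single diet. Calf 1689 was also the highest of all calves for both genes, so that leaving it out lowers the MOD mean. With all 4 libraries left out, HCRT stood at -0.02 and PMCH at 0.69 in limma. Of the 29 fits that left out a single calf, HCRT was positive in 8 and negative in 21, between -0.39 and 0.25, whereas PMCH was positive in all 29, between 0.37 and 1.01. In the plot of estimates by setting, all intervals drawn include 0, and the point without the 3 MOD calves chosen for their high values has none.

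**Figure D2:**
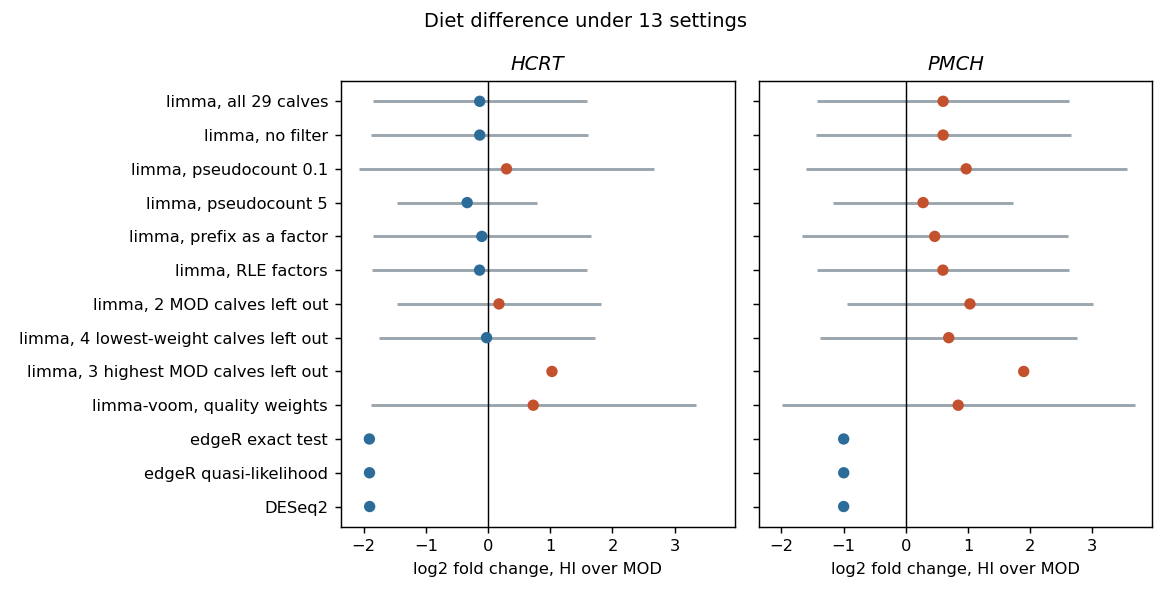
Log2 fold change of HI over MOD for HCRT (left) and PMCH (right) under 13 settings, with orange points above 0 (higher in HI), blue points below 0 (higher in MOD) and 95% intervals as grey lines where the limma fits give them, except for the setting without the 3 highest MOD calves, whose choice by value allows no test. The 3 count-based tools lie at about -1.9 for HCRT and -1.0 for PMCH, whereas limma on all calves lies at -0.13 and 0.60.

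Both directions also occurred within the file-name prefixes of the libraries, which took 5 values, each with calves of both diets. What the prefix stands for is not given in the sources used here, and it followed the order of the calf numbers, so that it may mark animals as much as a laboratory step. The mean log2(CPM + 1) of HCRT was higher in HI within 2 prefixes and higher in MOD within 3, with differences from -1.73 to 1.64. PMCH was likewise higher in HI within 2 and higher in MOD within 3, from -1.51 to 2.77. Each prefix held only 2 to 4 calves of a diet. For both genes MOD was higher within prefixes 8, 9 and 10, which hold the high MOD calves 1689, 2537 and 3622 in turn. The signs within prefixes are thus not independent of those 3 calves. With the prefix as a factor in limma, the difference was -0.10 for HCRT (p = 0.908, adjusted p = 1.00) and 0.46 for PMCH (p = 0.659, adjusted p = 1.00).

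Calves were next counted as on or off at 1 CPM, the low-expression limit of the study. HCRT was on in 8 of 14 HI calves (57.1%) and in 6 of 15 MOD calves (40%, p = 0.466, two-sided Fisher's exact test). PMCH was on in 11 of 14 HI calves (78.6%) and in 8 of 15 MOD calves (53.3%, p = 0.245, Fisher's exact test). The order of the diets turned with the level asked for. Above 10 CPM, HCRT was found in 4 HI and 4 MOD calves, and PMCH in 7 HI and 4 MOD calves (Fisher's exact p = 1 and 0.264). Above 50 CPM, HCRT was found in 0 HI and 3 MOD calves (Fisher's exact p = 0.224), and above 100 CPM the same held for PMCH (Fisher's exact p = 0.224). At 1 read or more, HCRT was detected in 28 calves and PMCH in all 29, so that off means a low level at this depth, not absence of the transcript.

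**Figure D3:**
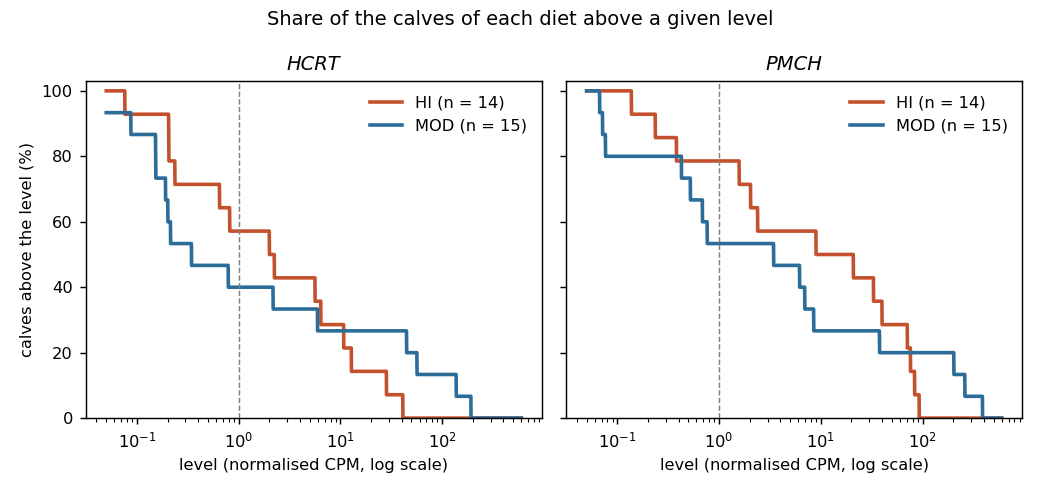
Percent of the calves of each diet (HI n = 14, MOD n = 15) whose HCRT (left) or PMCH (right) level exceeded the value on the log-scaled x axis in normalised CPM, with a dashed line at 1 CPM. HI lies above MOD over most of the lower levels, and the curves cross, so that only MOD calves remain above 50 CPM for HCRT and above 100 CPM for PMCH.

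The 2 genes rose and fell together across calves. Both were on in 14 calves, 8 HI and 6 MOD, and both were off in 10, 3 HI and 7 MOD. PMCH alone was on in the other 5 calves, and HCRT alone in 0. CPM is not corrected for transcript length, so that this count does not rank the abundance of the 2 transcripts. The 3 calves highest for HCRT were the 3 highest for PMCH, and the sets of the 14 highest calves were identical.

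Pearson's r of log2(CPM + 1) was 0.942 over the 29 calves and Spearman's rho was 0.911 (each p = 1e-05 by permutation, the smallest that 100000 resamples give). With the 2 calves farthest from the HCRT median left out, r was 0.932. The relation was present in both diets, with r = 0.938 in HI and 0.968 in MOD, and with the 2 farthest calves of a diet left out, a choice made after the data were seen, it was 0.978 and 0.938. The rho within diets was 0.943 in HI and 0.850 in MOD. Within the 4 file-name prefixes that held 6 calves, the correlation was 0.992, 0.944, 0.988 and 0.975 (exact permutation, p = 0.00694, 0.00278, 0.0125 and 0.00139). Over this family of 7 correlations (all calves, 2 diets, 4 prefixes), Benjamini-Hochberg adjusted p-values by permutation lay between 2.33e-05 and 0.0125. Among the 14 calves with both genes on, r was 0.876 (permutation p = 5e-05), and without the 4 libraries that stood apart it was 0.941.

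**Figure D4:**
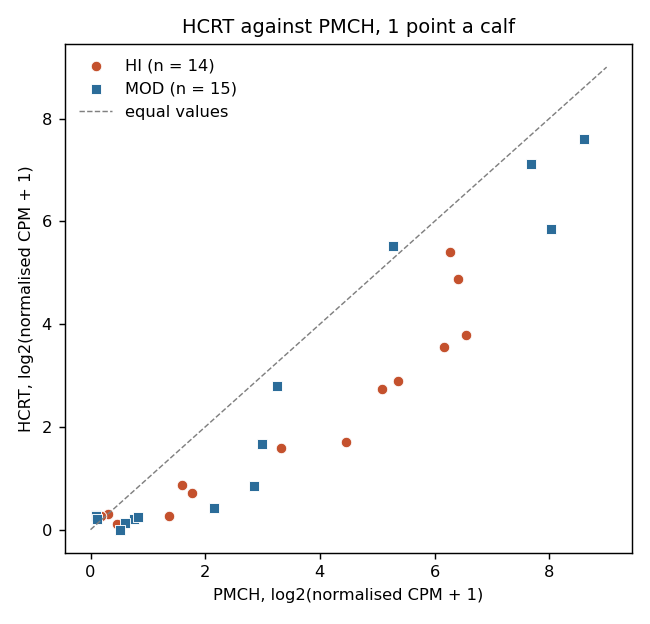
HCRT against PMCH, both as log2(normalised CPM + 1), 1 point a calf, HI as orange circles (n = 14) and MOD as blue squares (n = 15), with a dashed line of equal values. The points form a single rising band (r = 0.942), with MOD calves at the upper end and calves of both diets at the lower end.

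No other gene tracked either peptide gene as closely. Among the 13784 other genes, PMCH ranked 1st by r with HCRT and HCRT ranked 1st by r with PMCH, and the same held by rho. The next gene for HCRT, ENSBTAG00000017027, had r = 0.611 (rho 0.552), and the next for PMCH, ENSBTAG00000000625, had r = 0.599 (rho 0.572). Over all genes the median r was -0.01 with HCRT and near 0 with PMCH, and r exceeded 0.5 for 17 genes besides PMCH and for 51 genes besides HCRT. The plot of r over all genes shows the gap between these genes and the pair. As a comparison within the table, AVP and OXT had r = 0.937 with each other (rho 0.909, each p = 1e-05 by permutation over 29 calves, and r = 0.894 without the 2 calves farthest from the AVP median).

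**Figure D5:**
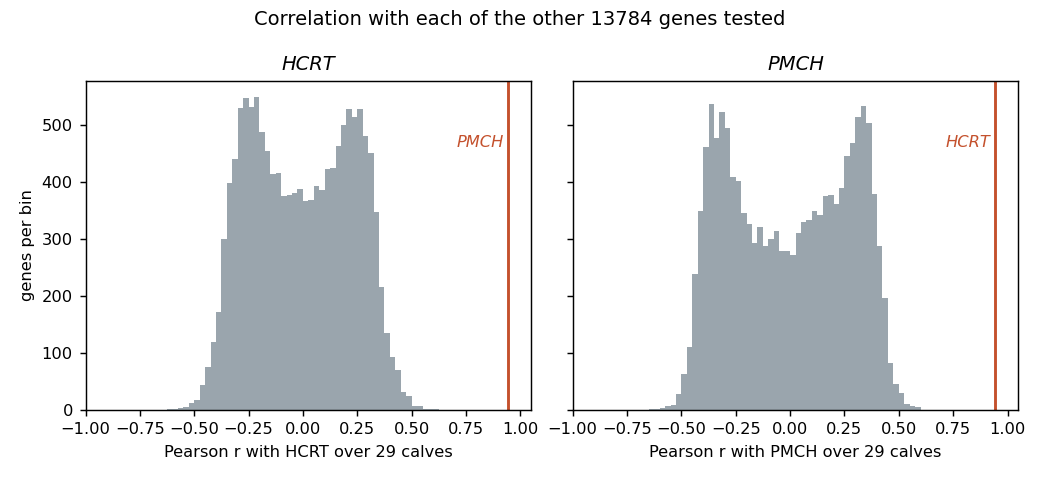
Number of genes per bin of Pearson's r with HCRT (left) and with PMCH (right), computed over 29 calves for the other genes tested, with a vertical line at the r of the pair. The pair lies at 0.942, beyond the next genes at 0.611 and 0.599.

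Among genes with a symbol, those most like HCRT were NNAT, the neuronatin gene (r = 0.513, rho 0.484), TAC1, the precursor of substance P (0.457, 0.365), BAIAP3, which acts in dense-core vesicle release (0.404, 0.352), RTP5 (0.402, 0.304) and ARHGAP36 (0.399, 0.338). Those most like PMCH were NNAT (r = 0.514, rho 0.518), TAC1 (0.472, 0.433), RPL12, a ribosomal protein gene (0.463, 0.411), POMC (0.421, 0.391) and CLDN5, a tight junction gene of endothelium (0.417, 0.354). Only 114 identifiers could be paired with a symbol, so these names cover a small part of the table. NNAT was 15th of all genes by r with HCRT and 28th with PMCH, with a median of 86.3 CPM in the HI and 189 CPM in the MOD calves (log2 fold change -0.55, p = 0.133, adjusted p = 0.999 in limma).

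Other peptide genes of these neurons or their surroundings had lower r with either gene. Orexin neurons also contain dynorphin, made from PDYN, and many MCH neurons contain the peptide made from CARTPT. Over the 29 calves the r of PDYN was 0.272 with HCRT and 0.214 with PMCH, and that of CARTPT was 0.317 and 0.302. For PENK, the enkephalin precursor, it was 0.357 and 0.342, and for GAL, the galanin gene, 0.081 and 0.125. The magnocellular genes AVP (0.312 and 0.290) and OXT (0.361 and 0.343) had higher rank correlations, from 0.480 to 0.502 (permutation p from 0.00663 to 0.00921, and 0.0737 after adjustment). This was not particular to them. NKX2-1, not a peptide gene, had a rho of 0.462 with HCRT and 0.501 with PMCH (permutation p = 0.0120 and 0.00600, and 0.0801 and 0.0737 after adjustment). Of 40 relations computed (18 listed genes, the library total and the TMM factor, each with both genes), none passed an adjusted p of 0.05, the lowest being 0.222 for Pearson's r (TAC1, POMC and CLDN5, permutation test).

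Several of these values varied with the calves taken. TAC1 had r = 0.744 with HCRT and 0.772 with PMCH in HI, against 0.339 and 0.380 in MOD, a difference that was not tested. NKX2-1 had r = 0.364 with HCRT and 0.329 with PMCH over all calves and 0.791 and 0.760 without the 2 calves farthest from its own median. PENK likewise had 0.574 and 0.568 without its 2 farthest calves, and 0.650 and 0.631 in HI against 0.238 and 0.249 in MOD. In the other direction, without the 2 calves farthest from its median POMC fell from 0.421 to 0.227 with PMCH, and CLDN5 from 0.298 to 0.050 with HCRT and from 0.417 to 0.227 with PMCH. The library total had r = 0.142 with HCRT and 0.265 with PMCH, and the TMM factor -0.282 and -0.342, with adjusted permutation p-values of 0.570, 0.276, 0.261 and 0.247. For the markers of other tissue, the r with HCRT and with PMCH was 0.275 and 0.320 for PRL and 0.196 and 0.248 for CGA (anterior pituitary), and 0.087 and 0.188 for HBD (blood). Their part in the levels of the pair was not tested.

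The companion genes were not called between diets either. Of the 12 listed, 5 had an identifier and all 5 were above the low-expression limit. The study reports PDYN, GAL, TAC1 and PENK as lower in HI in this tissue. In limma 0 of the 5 passed the test, as did 0 of all 13785 genes tested. The values were -0.67 for PDYN, -0.46 for CARTPT, 0.19 for GAL, -0.68 for TAC1 and -0.98 for PENK (log2 fold change of HI over MOD, unadjusted p from 0.102 to 0.718). The median in HI and in MOD was 18.1 and 24.7 CPM for PDYN, 2.70 and 4.69 CPM for CARTPT, 4.51 and 10.1 CPM for TAC1, and 4.82 and 15.7 CPM for PENK, whereas it was 3.60 and 2.96 CPM for GAL, in the direction of HCRT and PMCH. The differences of these medians were not tested. Of the other 13 listed genes, the magnocellular, ARC, pituitary and cell type genes, limma likewise called 0, with values from -1.96 for AVP (p = 0.0997, adjusted p = 0.999) to 0.90 for PRL (p = 0.0825, adjusted p = 0.999). AGRP, NKX2-1, LHX6 and HBD were below the low-expression limit and came from the fit of 19525 genes with a read.

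The ratio of PMCH to HCRT within a calf was higher in HI, with a difference close to the limit of the test. After 1 CPM was added to each gene, the mean log2 ratio was 1.45 ± 1.02 in HI (SD, n = 14) and 0.71 ± 0.79 in MOD (SD, n = 15), a difference of 0.73 (p = 0.0394, two-sided permutation test, not adjusted and chosen after the values were seen). The median ratio was 2.48 in HI and 1.46 in MOD, and it ranged from 0.943 to 6.77 in HI and from 0.850 to 4.54 in MOD. The added 1 CPM draws the ratio towards 1 in calves with both genes off, which were 3 HI and 7 MOD calves. The difference over all calves therefore depends in part on how many calves of each diet were off. Among calves with both genes on, the plain ratio ranged from 1.85 to 9.33 in 8 HI calves and from 0.847 to 4.61 in 6 MOD calves, a log2 difference of 1.37 (exact permutation p = 0.0120). In calves with at least 10 reads of both genes, 10 HI and 7 MOD, the difference was 0.94 (exact permutation p = 0.0552). Without the 4 libraries that stood apart it was 0.71 (permutation p = 0.0590), and with single calves left out in turn it lay between 0.63 and 0.85, and 14 of these 29 permutation tests lost the call, with p of up to 0.0716 (HI calf 3148). These are ratios of reads, not of molecules, since CPM takes no account of transcript length.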

How the data were processed

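RNA-Seq of hypothalamus without the ARC was analysed in 29 calves (polyA RNA, stranded kit, 150 bp paired-end reads). The authors used Cutadapt for trimming, STAR with UMD3.1 for alignment and gene counts, and edgeR for TMM normalisation. The tool versions in the submitters' processing notes (STAR 2.6.1, edgeR 3.5) differ from those in the methods. Each deposited value is such a normalised CPM, a signal per gene and calf without a filter. Whole reads could be recovered for 100% of the values (within 0.1 reads).

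Genes above 1 CPM in at least 14 calves were fitted with limma 3.58.1 (trend, log2(CPM + 1)) in R 4.3.3, with Benjamini-Hochberg adjustment over all 13785 genes. Called genes had an adjusted p under 0.10 and a fold change over 1.5. Recovered reads were tested in edgeR 4.0.16 and DESeq2 1.42.0. The limma fit was tested on simulated data. Single values were tested by permutation or Fisher's exact test. Symbols came from the study's tables (114 identifiers). The floors of 3 reads cover counting error only, whereas the limma intervals rest on the spread between calves. The study gives week 3 for the start of the diets. The genes, lists and tests were chosen with earlier results of these data known. Named genes were HCRT, PMCH, the listed peptide and marker genes with an identifier, and, for each of the pair, the 5 genes with a symbol and the highest r. The alternatives are given at the end. Those that left out 3 or 4 calves or the 2 farthest calves of a diet, the 100 CPM limit, the medians, the spread and the ratio of PMCH to HCRT were added after the data were seen.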

Additional observations from a re-analysis of the deposited data

How the results depend on the processing

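The correlation of HCRT with PMCH stayed positive and past its threshold in the 15 other settings and in the 29 fits without a single calf (r from 0.934 to 0.950). The diet difference was called for neither gene under any setting, but its sign moved. For HCRT it turned positive with a pseudocount of 0.1 (0.30), with voom weights (0.73), without MOD calves 1689 and 2551 (0.18) and without MOD calves 1689, 2537 and 3622 (1.03), and it ranged from -0.39 to 0.25 with 1 calf left out, with 0.00 without HI calf 1360, 0.01 without 1707, 0.02 without 2528 and 0.01 without 2570, and 0.10, 0.25, 0.13 and 0.22 without MOD calves 1392, 1689, 2537 and 3622. For PMCH it turned negative in the exact test (-0.999), the quasi-likelihood test (-0.998) and DESeq2 (-0.999), and ranged from 0.37 to 1.01 with 1 calf left out. The log2 ratio of means turned for HCRT to 2.63 with medians and to 0.80 without the 3 highest MOD calves, and for PMCH to 2.12 with medians, 1.82 with trimmed means and 2.50 without those calves. With 1 calf left out it ranged from -2.44 to -1.16 for HCRT and from -1.23 to -0.29 for PMCH. The difference in the percentage of calves that were on turned for HCRT to -20 points above 50 CPM and -13.3 above 100 CPM, and for PMCH to 0 at 1 read and -20 above 100 CPM, and ranged with 1 calf left out from 13.8 to 21.5 and from 21.4 to 31.3. The ratio of PMCH to HCRT lost its call at 10 reads of both (0.94) and without the 4 libraries that stood apart (0.71), and ranged from 0.63 to 0.85 with 1 calf left out, losing the call in 14 of 29 such tests. DESeq2 called 2 genes in the table against 0 in limma. Where a sign or call moved, the cause was not tested. No paired analysis was possible because the calf numbers are shared by no calves across diets, and the blocks in which calves were allotted to diets are not given in the labels used here. Counts of 3 reads or fewer limit HCRT in 11 calves and PMCH in 5, and the order of those calves is not resolved.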
